A study of Mus musculus with 54 samples.

Results

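Transcripts of 8 complement genes were followed in RNA from whole mouse cerebellum of RnaseH2B single and compound mutants. They were C1qa, C1qb and C1qc, C4b, C3, Serping1, C3ar1 and Itgam, chosen by name as components, an inhibitor and receptors of the pathway. The choice was made with earlier results of these data known. All 8 were found at each age, among 19232 features in the P5 table, 19432 at P28 and 17827 at 9 weeks. At P5 the libraries carried the genotypes RnaseH2B,Atm Nes-cre (4 libraries, here Rnaseh2b/Atm), RnaseH2B,p53 Nes-cre (4, Rnaseh2b/p53), RnaseH2B Nes-cre (3, Rnaseh2b), Atm Nes-cre (3), p53 Nes-cre (3) and Control (3). At P28 there were 5 libraries each of Rnaseh2b/Atm, Rnaseh2b, Atm Nes-cre and Control, and at 9 weeks 7 of Rnaseh2b and 7 of Control. The libraries of P5 and 9 weeks were made from total RNA and those of P28 from poly-A RNA, so levels are not compared between ages. Every mutant genotype carries Nes-cre, a Cre transgene active in neural precursors and therefore in neurons and macroglia. Microglia come from another lineage. The labels do not say which alleles or transgene the Control mice had, nor that each library was a separate animal, so p-values measure the spread between these libraries, which may be technical.

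Complement is a cascade of secreted proteins that tag material for removal and call in phagocytes. C1q binds the tagged surface, its partner proteases then cut C4 and C2, and the resulting convertase cuts C3. Fragments of C3 are read by phagocytes through Itgam and C3ar1, and Serping1, the C1 inhibitor, holds the first proteases back. In brain the C1q chains are made mainly by microglia and C4 largely by astrocytes and oligodendrocytes, and C1q and C3 mark synapses for removal during development.

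The RefSeq promoter table (GRCm38.p6) held 5 of the 8 genes, C1qb, C1qc, C3, C3ar1 and Itgam, and did not match C1qa, C4b and Serping1. The 250 bases before the start of each were searched on both strands for motifs of factors that act in phagocytes or inflammation. GAS (TTCNNNGAA), an ISRE core (GAAA, 2 free bases, GAAA) and an ETS-IRF composite (GGAA, 2 free bases, GAAA) gave no match in any of the 5 windows. Of all 32851 windows in the table, 7.02% held the GAS letters, 2.98% the ISRE core and 2.3% the composite. A PU.1 site, GAGGAAGT, was found in C1qc alone, on the minus strand at positions -195 to -188 from the start, and 2.44% of all windows hold it. A C/EBP pattern, TTGCNNAA, was found in C3 alone, at -45 to -38, and 9.56% of all windows hold it. The ISRE core and the composite share letters and can overlap. Both matches are shown in capitals in the following windows, and C1qb, another C1q gene, is given beside them. The C1qc stretch runs from -250 to -152, and those of C1qb and C3 from -150 to -1. The bases after the C1qb start matched no transcript of that gene, while those of C1qc, C3, C3ar1 and Itgam did.
C1qc, chr4:136893066-136893164, minus strand: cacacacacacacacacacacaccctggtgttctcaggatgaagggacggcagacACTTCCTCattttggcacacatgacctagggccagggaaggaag
C1qb, chr4:136886201-136886350, minus strand: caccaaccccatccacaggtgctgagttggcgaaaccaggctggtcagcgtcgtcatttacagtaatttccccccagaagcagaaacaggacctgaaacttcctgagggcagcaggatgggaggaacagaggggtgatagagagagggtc
C3, chr17:57228137-57228286, minus strand: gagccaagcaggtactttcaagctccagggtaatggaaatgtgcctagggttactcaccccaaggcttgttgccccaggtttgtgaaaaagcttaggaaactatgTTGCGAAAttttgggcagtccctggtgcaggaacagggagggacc
The C1q genes are neighbours on chromosome 4, and C3 and C4b are both on chromosome 17. A match is a description of letters and says nothing about binding.

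Reads assigned to genes ran from 24.1 M to 89.7 M per library at P28 and from 48.2 M to 95.1 M at P5, except for 711 M in replicate 3 of Rnaseh2b/p53. Depth at 9 weeks could not be recovered. Rnaseh2b transcripts were lower than in Control in every comparison of a group carrying its deletion, and Trp53 transcripts were lower than in Control in both P5 groups labelled p53. Atm transcripts averaged 4.79 ± 0.15 log2 CPM (reads scaled to the library's total) in the P28 libraries labelled Atm and 4.83 ± 0.06 in Control (SD, n = 5 each), and at P5 no group labelled Atm was called lower. P28 Rnaseh2b/Atm libraries held less, 4.05 ± 0.05 log2 CPM (SD, n = 5). These libraries are therefore named by their label. At P5, replicate 1 of the libraries labelled Atm and replicate 2 of Control stood apart. They held 3.31 and 3.76 log2 CPM of Rnaseh2b, below the 4.22 to 4.61 of the other libraries of those groups, and P5 differences of the 8 genes from Control or from the libraries labelled Atm are given with and without them.

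Per length, C1qa and C1qb were the most abundant of the 8 transcripts in Control cerebellum. At P28, C1qa averaged 9.82 ± 1.40 FPKM, which divides by transcript length, and C1qb 8.88 ± 0.66, a difference within the spread of C1qa. Serping1 at 5.75 ± 0.47 FPKM and C1qc at 5.42 ± 1.08 FPKM followed and overlapped, then C4b at 2.04 ± 0.25 FPKM and Itgam at 1.06 ± 0.12 FPKM. C3ar1 at 0.22 ± 0.04 FPKM and C3 at 0.12 ± 0.04 FPKM were the lowest (all SD, n = 5). In P28 Rnaseh2b/Atm libraries C4b reached 10.3 ± 2.79 FPKM and overlapped Serping1 at 10.1 ± 1.07 FPKM, and C1qc was at 8.28 ± 1.91 FPKM (SD, n = 5). P5 Control had the same order of means except that C1qc, at 8.53 ± 0.43 FPKM, lay above Serping1 at 5.95 ± 1.12 FPKM (SD, n = 3). The FPKM ratio of C1qa to C1qb had a median of 1.07 over the 20 libraries of P5 and again over the 20 of P28, with ranges of 0.915 to 1.31 and 0.973 to 1.20.

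Members were called by limma on the deposited log2 CPM values at a Benjamini-Hochberg adjusted p below 0.05 over all genes tested. At P28, the 8 genes were all called higher in Rnaseh2b/Atm than in Control, where 31.5% of the 16530 tested genes were called higher and 63.6% in either direction. Their median log2 fold change was 0.80, against -0.02 over all tested genes. C3 and C3ar1 passed the filter on low values at P28 only through their 5 Rnaseh2b/Atm libraries. Their places in this median, in this count and in the other P28 counts are therefore no support. With no filter both were again called in each of these comparisons. Rnaseh2b/Atm also had 8 called higher against the libraries labelled Atm (30% of all genes) and 7 against Rnaseh2b (24.9%), and these comparisons share the Rnaseh2b/Atm libraries. None of the 8 was called in Rnaseh2b against Control (5.21% of genes called) or in the libraries labelled Atm against Control (1.86%). In either comparison 0 were called by voom on recovered reads and 0 reached an unadjusted p below 0.05. That level was reached by 4291 and 2832 of the 16530 tested genes. The effect of Rnaseh2b deletion was tested for a difference between the Atm-labelled and the Control background. It was larger on the Atm-labelled background for 7 genes, all but Itgam and with C3 and C3ar1 among them, with 18.7% of all genes called in that direction. Atm transcripts were also lower in Rnaseh2b/Atm than in the Atm-labelled libraries, by 0.73 ± 0.07 log2 (adjusted p = 1.4e-08, limma). Loss of Rnaseh2b and this difference in Atm cannot be told apart in that test.

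**Figure D1:**
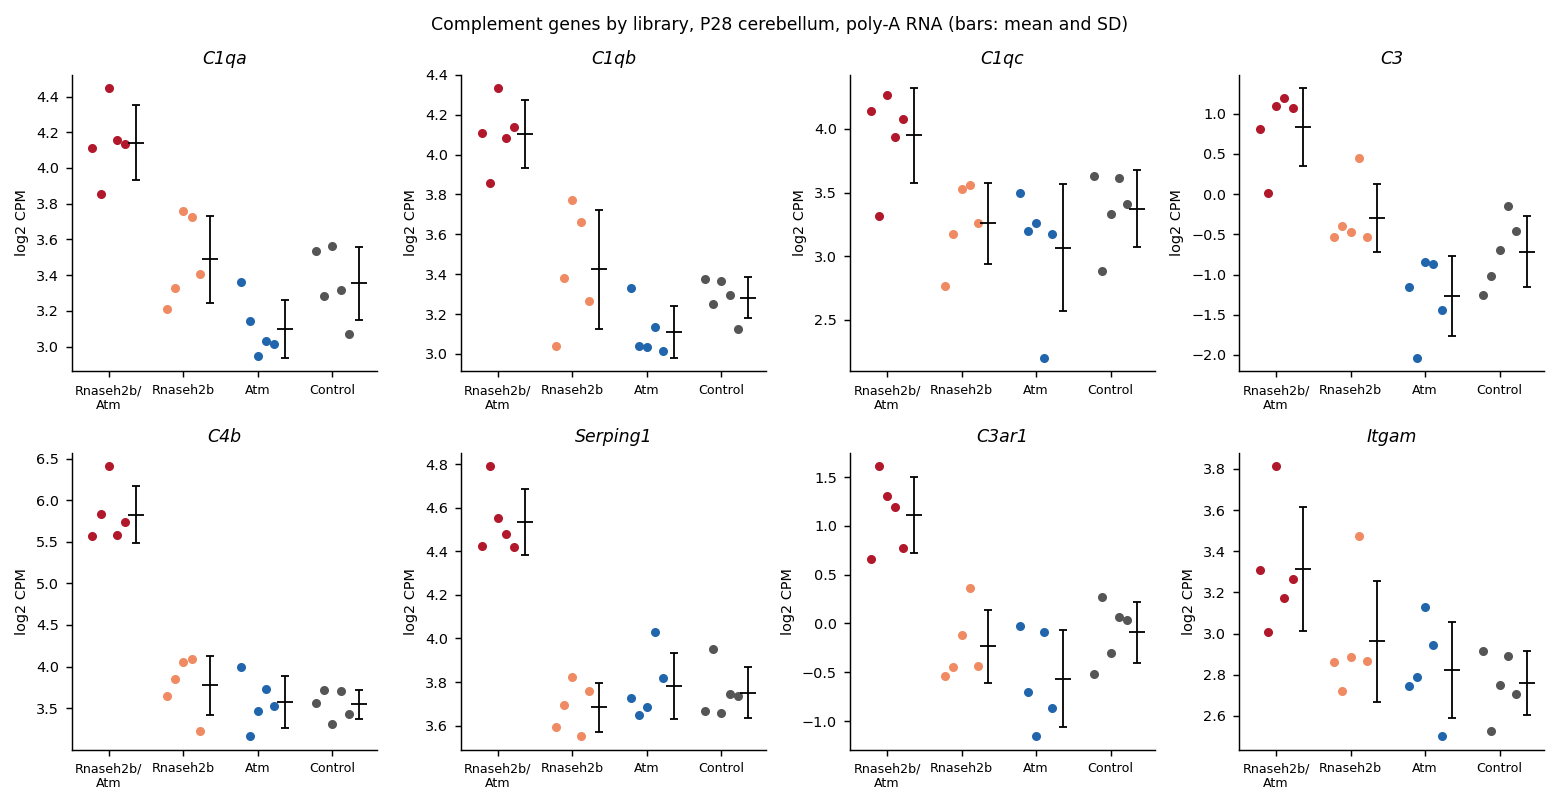
Levels of the 8 complement genes in each P28 library (log2 CPM, vertical axis, which differs by panel), with Rnaseh2b/Atm, Rnaseh2b, Atm-labelled and Control libraries from left to right and the mean ± SD beside the 5 points of each group. In C4b the 5 Rnaseh2b/Atm points lie at 5.57 to 6.41 log2 CPM, above all 15 others.

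At P5, 5 of the 8 were called higher in Rnaseh2b/Atm than in Control, with 6.48% of the 15421 tested genes called higher, and 4 against the libraries labelled Atm, with 7.48%. Without the libraries that stood apart the counts were again 5 and 4, but calls over all genes in either direction grew to 6380 and 3502, against 1520 (9.86%) and 1465 (9.5%) with them. Against Rnaseh2b, Rnaseh2b/Atm had 2 called higher (1.38% of genes) and Rnaseh2b/p53 had 4 called lower (1.91%). Without the libraries that stood apart these were 3 and 5, with 3566 and 1140 of the 15421 genes called in either direction, where 2.04% and 3.02% were called with those libraries. The first count was 0 without replicate 2 of Rnaseh2b and 1 without replicate 1 or 3 of Rnaseh2b or 2 or 3 of Rnaseh2b/Atm. The other was 0 without replicate 3 of Rnaseh2b and 2 without replicate 2, 3 or 4 of Rnaseh2b/p53. None was called in Rnaseh2b (0.681% of genes called), the libraries labelled Atm (0%), p53 (0.175%) or Rnaseh2b/p53 (0.428%) against Control, or in Rnaseh2b/p53 against p53 (0.188%). At an unadjusted p below 0.05 those comparisons gave 4, 1, 2, 4 and 0 members, and voom called 0 in each. At that unadjusted level 2043, 435, 913, 1316 and 607 of the 15421 tested genes passed. Both differences of effect at P5, on the Atm-labelled and on the p53 background, gave 0 members by limma and by voom. Of all genes 0% and 0.00648% were called by limma. At an unadjusted p below 0.05 they gave 3 and 2 members, and 884 and 1011 of the 15421 tested genes.

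At 9 weeks 7 of the 8 could be tested, and 6 were called higher in Rnaseh2b than in Control, with 10.6% of the 15078 tested genes called higher. Their libraries carry 2 separate ranges of codes, whose meaning the labels do not state, and the deposited means of these sets were equal gene by gene. Within the set of 3 libraries a group 2 members were called, Itgam and C1qc, and within the set of 4 a group 2 were called, C1qa and C1qc. C3 reached 1 CPM in 3 Rnaseh2b and 2 Control libraries and was not tested. C3ar1 reached it in 7 Rnaseh2b and 2 Control libraries, so it entered the test only through the group where it was high.

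**Figure D2:**
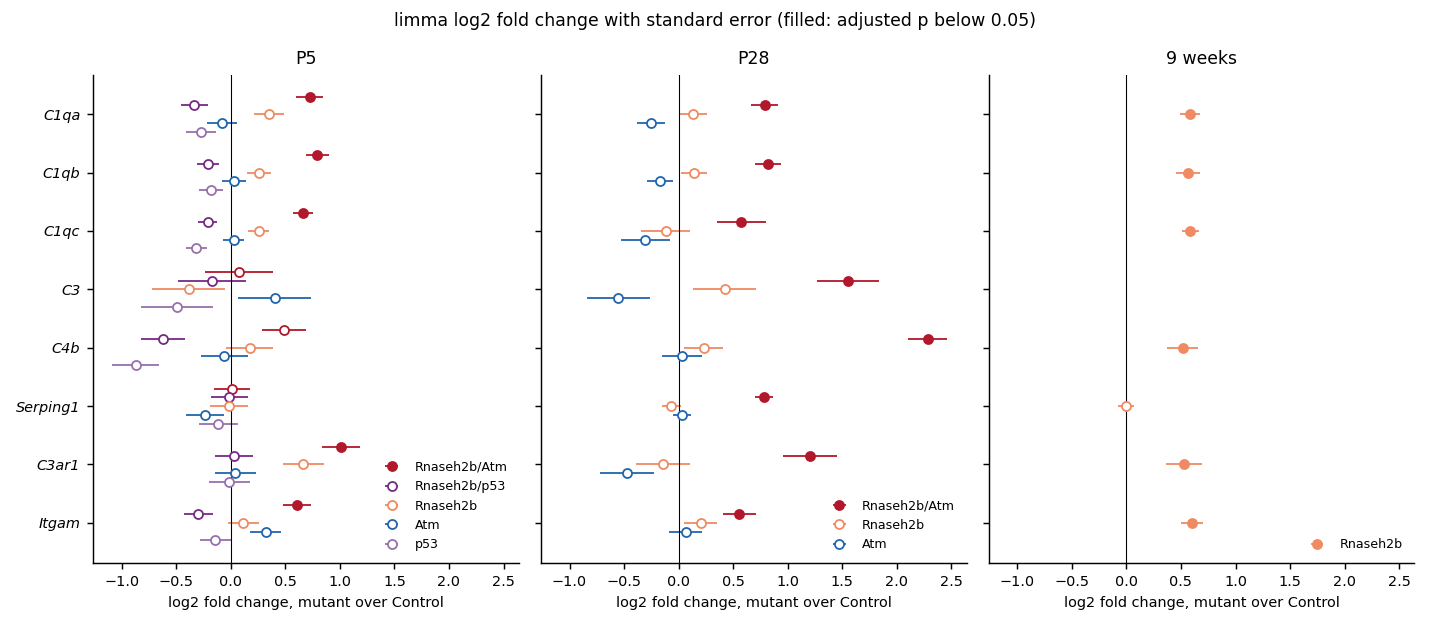
Log2 fold changes of the 8 genes in each mutant over Control (horizontal axis) with their limma standard errors, at P5, P28 and 9 weeks, filled where the adjusted p was below 0.05. C4b in P28 Rnaseh2b/Atm, at 2.28, is the largest shown, C3 was not tested at 9 weeks, and all mutants of an age share their Control libraries.

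The C1q chains, the A, B and C polypeptides of the recognition molecule, rose in Rnaseh2b/Atm cerebellum at P5 and P28 and in Rnaseh2b cerebellum at 9 weeks. At P5, C1qb was 4.06, 4.14, 4.22 and 3.91 log2 CPM in Rnaseh2b/Atm libraries, against 3.44, 3.14 and 3.29 in Control. The groups did not overlap, as in 10% of tested genes in that direction, and C1qb rose by 0.79 ± 0.10 log2 (SE, adjusted p = 0.00046). C1qa rose by 0.72 ± 0.13 (adjusted p = 0.0028) and C1qc by 0.66 ± 0.09 (adjusted p = 0.00063). Without the libraries that stood apart, C1qb was 0.72 ± 0.11, C1qa 0.75 ± 0.15 and C1qc 0.65 ± 0.11 higher on the log2 scale.

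P5 Rnaseh2b libraries lay between Rnaseh2b/Atm and Control in all 3 chains. C1qb was 3.51, 3.52 and 3.62 log2 CPM in Rnaseh2b, above each Control library, as in 6.46% of tested genes, and 0.26 ± 0.11 log2 higher without a call (adjusted p = 0.31), or 0.19 ± 0.12 without Control replicate 2 and replicate 1 of the libraries labelled Atm. Rnaseh2b/Atm exceeded Rnaseh2b by 0.53 ± 0.10 log2 in C1qb (adjusted p = 0.016) and by 0.41 ± 0.09 in C1qc (adjusted p = 0.029). Leaving out replicate 2 of Rnaseh2b gave adjusted p-values of 0.06 and 0.092. The C1qc call was also lost without either other Rnaseh2b library or replicate 2 or 3 of Rnaseh2b/Atm, at 0.076 to 0.086.

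Rnaseh2b/p53 libraries were at the other end. Their C1qb values were 3.35, 2.96, 3.07 and 2.95 log2 CPM, all below the 3.51 to 3.62 of Rnaseh2b, as in 11.9% of tested genes. Against Rnaseh2b, C1qa fell by 0.68 ± 0.13 on the log2 scale (adjusted p = 0.011), C1qb by 0.47 ± 0.10 (adjusted p = 0.024) and C1qc by 0.47 ± 0.09 (adjusted p = 0.013). All 3 calls were lost without replicate 3 of Rnaseh2b, with adjusted p-values of 0.091, 0.15 and 0.096. C1qb also lost its call without replicate 2 of Rnaseh2b or replicate 2, 3 or 4 of Rnaseh2b/p53, at 0.058 to 0.074. The p53 libraries, at 3.18, 3.08 and 3.06 log2 CPM of C1qb, fell within the range of Rnaseh2b/p53, and no chain was called between these groups.

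**Figure D3:**
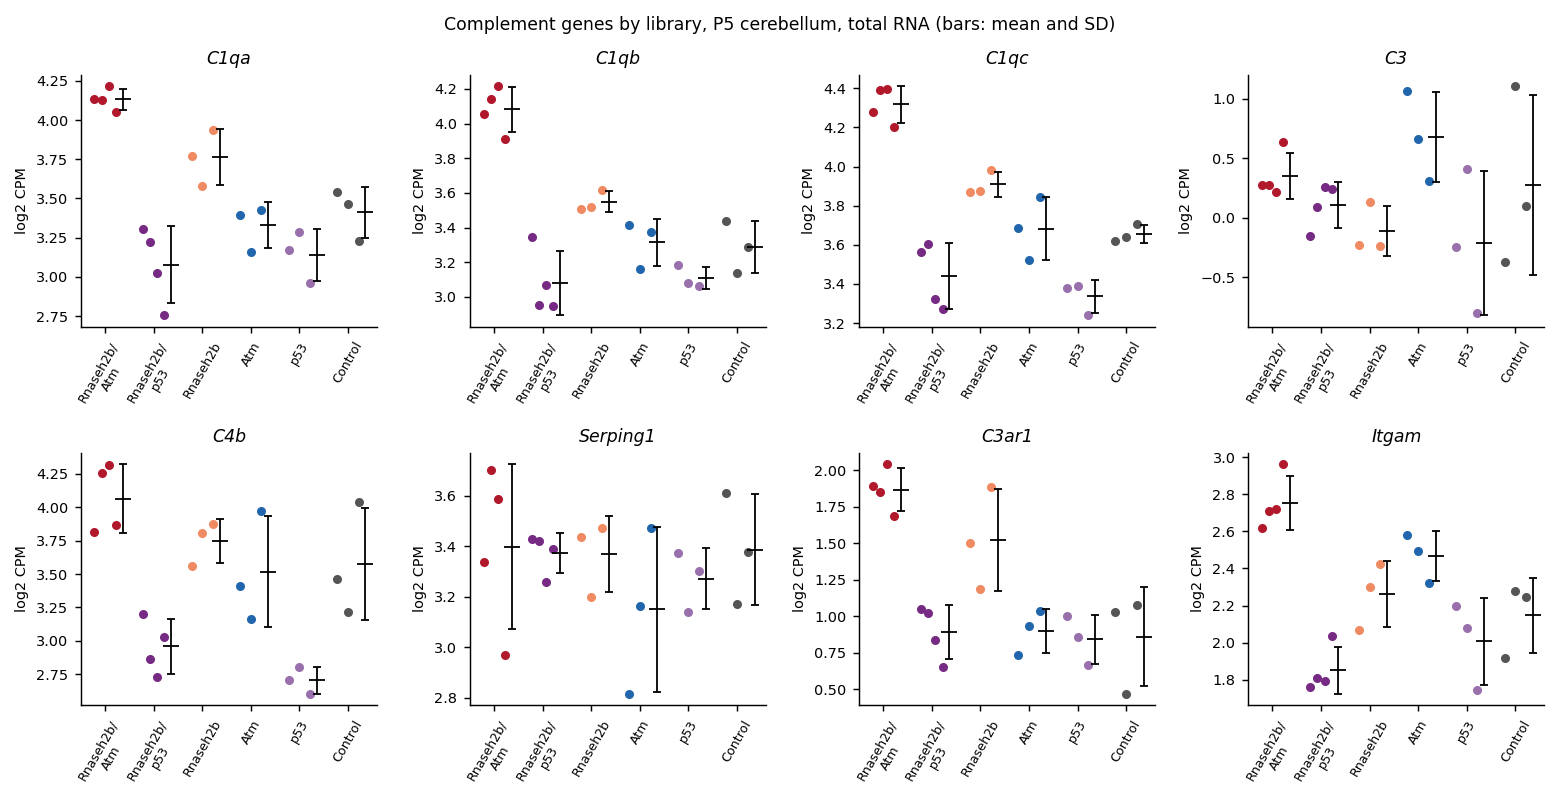
Levels of the 8 complement genes in each P5 library (log2 CPM, vertical axis, which differs by panel), from Rnaseh2b/Atm, Rnaseh2b/p53, Rnaseh2b, Atm-labelled and p53 libraries on the left to Control on the right, with the mean ± SD beside each group. The 4 Rnaseh2b/Atm points of C1qb, at 3.91 to 4.22, lie above every other library, and those of Rnaseh2b/p53 and p53 are the lowest groups.

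At P28, C1qa was 4.11, 3.86, 4.45, 4.16 and 4.14 log2 CPM in Rnaseh2b/Atm, against 3.53, 3.28, 3.56, 3.32 and 3.07 in Control. Every Rnaseh2b/Atm library was above every Control library, as in 23.5% of tested genes in that direction. C1qa rose by 0.79 ± 0.13 log2 (SE, adjusted p = 2.2e-05) and C1qb by 0.82 ± 0.12 (adjusted p = 5.9e-06). The libraries labelled Atm, at 2.95 to 3.36 log2 CPM of C1qa, overlapped Control, and so did Rnaseh2b at 3.21 to 3.76.

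C1qc was more variable at P28. It was 4.14, 3.32, 4.27, 3.94 and 4.08 log2 CPM in Rnaseh2b/Atm and 3.63, 2.88, 3.33, 3.62 and 3.41 in Control, so replicate 2 of Rnaseh2b/Atm lay inside the Control range. The rise of 0.57 ± 0.22 log2 (adjusted p = 0.032) lost its call without replicate 1, 3 or 5 of Rnaseh2b/Atm or replicate 2 or 3 of Control, with adjusted p-values of 0.054 to 0.09. The FPKM ratio of C1qc to C1qb ranged from 0.295 to 0.703 at P28 and from 0.636 to 0.884 at P5.

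At 9 weeks C1qc ran from 3.61 through a median of 3.94 to 4.11 log2 CPM in Rnaseh2b, against 3.09, 3.35 and 3.40 in Control. The groups did not overlap, as in 2.43% of tested genes in that direction, and the same held for C1qa and Itgam. C1qc rose by 0.59 ± 0.08 log2 (SE, adjusted p = 0.00038), C1qa by 0.58 ± 0.09 (adjusted p = 0.00083) and C1qb by 0.56 ± 0.11 (adjusted p = 0.003). Within the sets of 3 and 4 libraries a group, C1qc was 0.56 ± 0.14 and 0.60 ± 0.10 higher, C1qa 0.48 ± 0.14 and 0.66 ± 0.12, and C1qb 0.49 ± 0.14 and 0.62 ± 0.16, on the log2 scale. Of these within-set values, C1qa in the smaller set and C1qb in both were not called, with adjusted p-values of 0.066, 0.063 and 0.098.

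**Figure D4:**
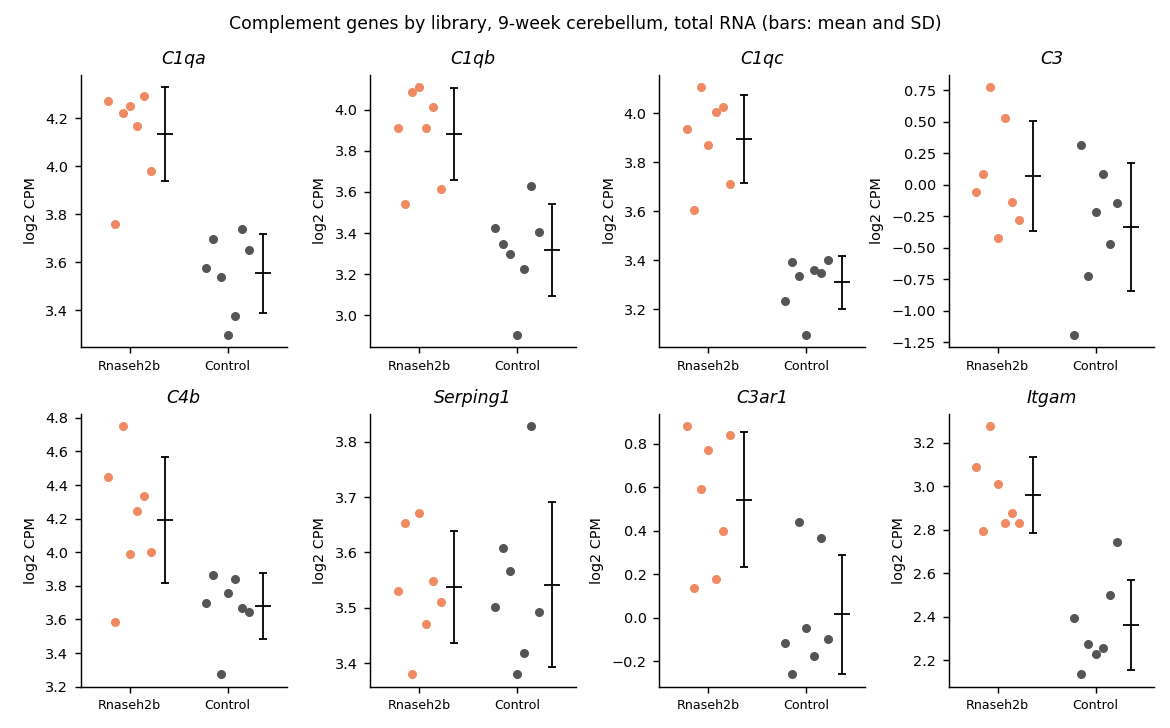
Levels of the 8 complement genes in each 9-week library (log2 CPM, vertical axis, which differs by panel), Rnaseh2b left of Control, with the mean ± SD beside the 7 points of each group. The C1qc points of Rnaseh2b, at 3.61 to 4.11, lie above those of Control, at 3.09 to 3.40, while both groups of Serping1 average 3.54.

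C4b, the substrate that C1 proteases cleave into an opsonin, had the largest rise of the 8. At P28 it was 5.57, 5.84, 6.41, 5.58 and 5.74 log2 CPM in Rnaseh2b/Atm, against 3.56, 3.71, 3.31, 3.71 and 3.43 in Control. The lowest double mutant library lay well above the highest Control, and 23.5% of tested genes did not overlap in that direction. The rise was 2.28 ± 0.18 log2, a 4.87-fold difference (SE, adjusted p = 3.1e-09), and C4b ranked 199 of the 16530 tested genes by fold change. Rnaseh2b libraries, at 3.23 to 4.09 log2 CPM, and those labelled Atm, at a mean of 3.58 ± 0.31, overlapped Control. Against the libraries labelled Atm the rise was 2.25 ± 0.18 log2 (adjusted p = 3.5e-09) and against Rnaseh2b 2.05 ± 0.18 (adjusted p = 3.3e-08).

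Of the 50-base words of the C4b transcript, 35.2% also occur in C4a, its near-identical neighbour, so reads could be split between these genes. C4a was 2.16 ± 0.21 log2 CPM in P28 Rnaseh2b/Atm and 1.39 ± 0.16 in Control (SD, n = 5 each), and it rose by 0.77 ± 0.12 (adjusted p = 2e-05).

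The P5 pattern of C4b differed in its groups. It was 2.71, 2.80 and 2.60 log2 CPM in p53 and 3.20, 2.86, 2.73 and 3.03 in Rnaseh2b/p53, against 3.46, 3.22 and 4.04 in Control. Both p53 groups lay below every Control library, as in 4.95% of tested genes for p53 and 3.77% for Rnaseh2b/p53. The differences of -0.87 ± 0.22 and -0.62 ± 0.20 log2 were not called (adjusted p = 0.16 and 0.29), nor were the -1.05 ± 0.23 and -0.80 ± 0.21 without the libraries that stood apart. Rnaseh2b/p53 was also below Rnaseh2b, whose values were 3.56, 3.80 and 3.88 log2 CPM, as in 11.9% of tested genes. That fall of 0.79 ± 0.20 on the log2 scale was called (adjusted p = 0.043), and it was lost without replicate 2 or 3 of Rnaseh2b or any single Rnaseh2b/p53 library, with adjusted p-values of 0.053 to 0.24. By limma it was also lost with the Xist level as a covariate (adjusted p = 0.052) or a replicate block (0.11). The same held on the log2(FPKM + 0.1) and log2(FPKM + 1) scales (0.053 and 0.059) and with CPM per reads in genes (0.08).

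P5 Rnaseh2b/Atm libraries held 3.82, 4.26, 4.31 and 3.87 log2 CPM of C4b, and Control replicate 3, at 4.04, lay among them. The difference of 0.49 ± 0.20 log2 was not called (adjusted p = 0.13), nor the 0.31 ± 0.21 without the libraries that stood apart. At 9 weeks C4b ran from 3.58 through a median of 4.24 to 4.75 log2 CPM in Rnaseh2b, against 3.27, 3.70 and 3.86 in Control. It rose by 0.52 ± 0.14 log2 (adjusted p = 0.018). Within the sets it was 0.65 ± 0.27 and 0.42 ± 0.10 higher, not called in either (adjusted p = 0.15 and 0.09).

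C3, the central component whose cleavage starts opsonisation, was low throughout, with 7 to 158 reads a library at P28. It was 0.81, 0.02, 1.09, 1.20 and 1.08 log2 CPM in P28 Rnaseh2b/Atm, against -1.26, -1.02, -0.69, -0.14 and -0.46 in Control. The groups did not overlap, as in 23.5% of tested genes in that direction, although replicate 2 of Rnaseh2b/Atm came close to the Control range. C3 entered the test only through its Rnaseh2b/Atm libraries, so this gap and the call on filtered genes are no support. The rise was 1.55 ± 0.29 log2 (SE, adjusted p = 0.00011). It was 0.28 on the log2(FPKM + 1) scale, which shrinks differences of low genes, and was called there too, on the same filtered genes. With no filter the rise was also called (adjusted p = 0.0001, limma). At P5, C3 was 0.28, 0.28, 0.22 and 0.64 log2 CPM in Rnaseh2b/Atm and -0.37, 1.11 and 0.10 in Control, so Control spanned the mutant values. At 9 weeks it averaged 0.07 ± 0.44 log2 CPM in Rnaseh2b and -0.33 ± 0.51 in Control (SD, n = 7 each).

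Serping1, the inhibitor of the C1 proteases, was called against Control in P28 Rnaseh2b/Atm and in none of the other 8 mutant groups tested. It was 4.42, 4.79, 4.55, 4.48 and 4.42 log2 CPM there, against 3.67, 3.95, 3.66, 3.75 and 3.73 in Control. The groups did not overlap, as in 23.5% of tested genes in that direction. The rise was 0.78 ± 0.09 log2 (adjusted p = 2.3e-07), and the difference of the Rnaseh2b effect between backgrounds was 0.82 ± 0.12 (adjusted p = 4.5e-05). At 9 weeks it averaged 3.54 ± 0.10 log2 CPM in Rnaseh2b and 3.54 ± 0.15 in Control (SD, n = 7 each), and the 95% interval of the difference ran from -0.15 to 0.15 log2 (adjusted p = 0.97). At P5 it averaged 3.40 ± 0.33 log2 CPM in Rnaseh2b/Atm (SD, n = 4) and 3.39 ± 0.22 in Control (SD, n = 3), with an interval of -0.34 to 0.36. Without the libraries that stood apart the difference was -0.10 ± 0.16 log2.

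C3ar1, the receptor of the C3a fragment, rose in Rnaseh2b/Atm at both ages. At P5 it was 1.89, 1.85, 2.04 and 1.69 log2 CPM, against 1.03, 0.47 and 1.08 in Control, a rise of 1.01 ± 0.18 log2 (adjusted p = 0.0027) and 0.81 ± 0.17 without the libraries that stood apart. Fitted with those 2 groups alone it was not called (adjusted p = 0.062). P5 Rnaseh2b libraries, at 1.19 to 1.89 log2 CPM, also lay above Control, as in 6.46% of tested genes. The difference was 0.66 ± 0.19 log2 without a call (adjusted p = 0.13), or 0.47 ± 0.18 without the libraries that stood apart. C3ar1 in Rnaseh2b/p53, at 0.65 to 1.05 log2 CPM, overlapped Control.

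At P28, C3ar1 was 0.66, 1.61, 1.30, 1.20 and 0.78 log2 CPM in Rnaseh2b/Atm, against -0.52, 0.27, -0.30, 0.07 and 0.04 in Control. The groups did not overlap, as in 23.5% of tested genes in that direction, although C3ar1 entered the test only through Rnaseh2b/Atm. The rise was 1.20 ± 0.25 log2 (adjusted p = 0.00033), or 0.31 on the log2(FPKM + 1) scale, called on both with the same filtered genes. With no filter C3ar1 was also called (adjusted p = 0.00033, limma). At 9 weeks it ran from 0.14 through 0.59 to 0.88 log2 CPM in Rnaseh2b, against -0.26, -0.10 and 0.44 in Control. The rise of 0.53 ± 0.16 log2 (adjusted p = 0.031) was the least stable of the 9-week calls. It was lost without replicate 1, 3, 4 or 7 of Rnaseh2b or replicate 1, 2, 5 or 7 of Control, with adjusted p-values of 0.051 to 0.067, and in both sets (0.25 and 0.26). The call was also lost by limma after quantile normalization (adjusted p = 0.056) and on the log2(FPKM + 1) scale (0.052).

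Itgam, the alpha chain of the receptor for surface-bound C3 fragments on microglia and other myeloid cells, rose in Rnaseh2b/Atm at P5 and P28 and in Rnaseh2b at 9 weeks. At P5 it was 2.62, 2.71, 2.72 and 2.96 log2 CPM in Rnaseh2b/Atm, against 1.91, 2.28 and 2.25 in Control, a rise of 0.61 ± 0.13 log2 (adjusted p = 0.0093) and 0.67 ± 0.15 without the libraries that stood apart. Fitted with those 2 groups alone it was not called (adjusted p = 0.09). The libraries labelled Atm held 2.58, 2.50 and 2.32 log2 CPM, the lowest of them close to the highest Control. Their mean was 0.32 ± 0.14 log2 higher than Control without a call (adjusted p = 0.76), or 0.33 ± 0.17 without the libraries that stood apart.

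At P28, Itgam was 3.31, 3.01, 3.81, 3.17 and 3.26 log2 CPM in Rnaseh2b/Atm and 2.92, 2.53, 2.75, 2.89 and 2.71 in Control, a rise of 0.55 ± 0.15 log2 (adjusted p = 0.0038). Replicate 4 of Rnaseh2b, at 3.47 log2 CPM, lay inside the double mutant range. The difference of 0.35 ± 0.15 between Rnaseh2b/Atm and Rnaseh2b was not called (adjusted p = 0.062), and without that library it was 0.48 ± 0.14 and called (adjusted p = 0.00856). Without replicate 2 of Rnaseh2b/Atm (adjusted p = 0.029) or by voom (0.021) it was also called. At 9 weeks Itgam ran from 2.80 through 2.88 to 3.28 log2 CPM in Rnaseh2b, against 2.13, 2.27 and 2.75 in Control, and it rose by 0.60 ± 0.10 (adjusted p = 0.0013). The 2 sets gave 0.79 ± 0.15 (adjusted p = 0.025) and 0.46 ± 0.13, which was not called (adjusted p = 0.13). Of the 50-base words of the longest Itgam transcript, 72.4% also occur in Gm49368, a GENCODE model that overlaps it, so its level is uncertain where reads are split between them.

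The other genes of the pathway moved in both directions. Of 30 such genes tested at P28, 15 were called higher in Rnaseh2b/Atm than in Control and 8 lower, with a median log2 fold change of 0.28. Over all 16530 tested genes 31.5% were called higher and 63.6% in either direction, so calls in both directions were common. Against the libraries labelled Atm 14 were called higher and 6 lower, against Rnaseh2b 12 and 4, and in the difference of effects 14 and 2. Of all genes 30%, 24.9% and 18.7% were called higher in these comparisons. Susd4, a membrane inhibitor of complement, rose by 0.95 ± 0.04 log2 (adjusted p = 3.2e-12). Colec12, a scavenger receptor of the collectin family, rose by 0.78 ± 0.06. Sez6l and Srpx2, brain proteins with complement-control domains, rose by 1.27 ± 0.10 and 2.45 ± 0.24. The C1 protease genes C1ra and C1s rose by 1.37 ± 0.21 and 0.75 ± 0.19. Cd55, which dissolves convertases, rose by 0.98 ± 0.13, and Vtn, which blocks the terminal complex, by 0.49 ± 0.06. Itgb2, the beta chain that pairs with Itgam, rose by 0.74 ± 0.13.

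Among those that fell in P28 Rnaseh2b/Atm, Cfp, or properdin, which steadies the alternative convertase, decreased by 0.67 ± 0.07 log2. The lectin pathway proteases Masp2 and Masp1 decreased by 0.68 ± 0.08 and 0.66 ± 0.13. In the other comparisons few were called. At P28, Susd4 alone was called in Rnaseh2b against Control (0.28 ± 0.04 higher), and Cd59a, an inhibitor of the terminal complex, alone in the libraries labelled Atm (0.79 ± 0.18 lower). Of all genes 5.21% and 1.86% were called there in either direction.

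At 9 weeks 4 of 23 tested were called higher in Rnaseh2b and 2 lower, where 10.6% of all tested genes were called higher. Susd4 was 0.26 ± 0.05 higher, Colec12 0.25 ± 0.06, Cd59a 0.63 ± 0.18 and Vtn 0.22 ± 0.07, and Masp1 decreased by 0.36 ± 0.11 and Cfp by 0.22 ± 0.07. At P5, of 26 tested, Colec12 (0.64 ± 0.18) and Itgax (0.90 ± 0.27), the alpha chain of a second receptor for C3 fragments, were called higher in Rnaseh2b/Atm than in Control. The same 2 were called higher against the libraries labelled Atm. Of all genes 6.48% and 7.48% were called higher in these comparisons. Against Rnaseh2b, Masp1 was called higher in Rnaseh2b/Atm (0.34 ± 0.07) and in Rnaseh2b/p53 (0.28 ± 0.07), and Itgax decreased by 1.28 ± 0.27 in Rnaseh2b/p53. Of all genes 2.04% and 3.02% were called there in either direction. By limma, 0 were called in Rnaseh2b, the libraries labelled Atm, p53 or Rnaseh2b/p53 against Control or in Rnaseh2b/p53 against p53, with 2, 0, 2, 3 and 2 at an unadjusted p below 0.05. The 2 differences of effect at P5 also gave 0, with 1 and 2 at that level.

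Microglial genes were higher in the groups where the C1q chains rose. The list held 15 genes, none of them among the 8. Of these, 12 were called higher in P28 Rnaseh2b/Atm, 8 in P5 Rnaseh2b/Atm and 8 in 9-week Rnaseh2b against Control, and none lower. Of all tested genes 31.5%, 6.48% and 10.6% were called higher in these comparisons. Their summed level was 212 to 264 CPM in P28 Rnaseh2b/Atm, against 134 to 148 in Control. At P5 it was 223 to 263 CPM in Rnaseh2b/Atm, 151 to 164 in Rnaseh2b/p53 and 137 to 144 in p53, against 156 to 190 in Control, and at 9 weeks 159 to 219 CPM in Rnaseh2b, against 127 to 150 in Control. In RNA from whole tissue, more cells of a type, more RNA per cell and a smaller share of RNA from other cells cannot be told apart.

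Less the mean of these microglial genes, the mean of the C1q chains was 0.84 ± 0.18 log2 in P28 Rnaseh2b/Atm and 0.80 ± 0.09 in Control (SD, n = 5 each). On the same scale C4b was 2.60 ± 0.25 in Rnaseh2b/Atm and 1.01 ± 0.20 in Control. At P5 the C1q mean was 0.97 ± 0.10 in Rnaseh2b/Atm (SD, n = 4) and 0.70 ± 0.24 in Control (SD, n = 3), and at 9 weeks 1.04 ± 0.14 in Rnaseh2b and 0.86 ± 0.13 in Control (SD, n = 7 each). C4b on this scale was 0.85 ± 0.15 in P5 Rnaseh2b/Atm and 0.83 ± 0.55 in P5 Control. At 9 weeks it was 1.26 ± 0.26 in Rnaseh2b and 1.14 ± 0.17 in Control. The part of microglial content in the members' rises was not tested.

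**Figure D5:**
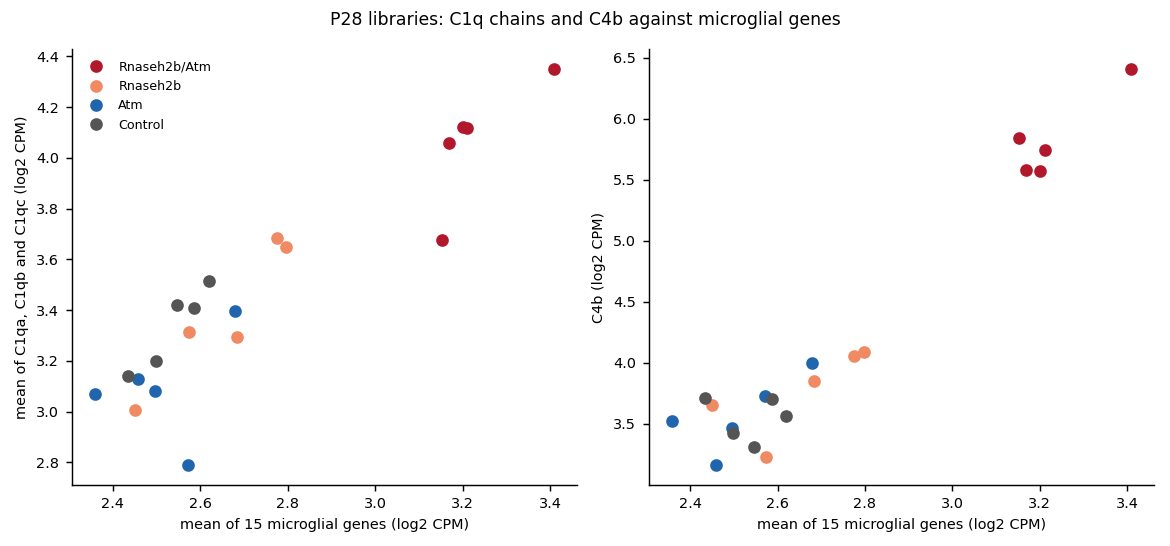
Mean of the 3 C1q chains (left) and C4b (right) against the mean of 15 microglial genes in each P28 library, all in log2 CPM and coloured by group. The 5 Rnaseh2b/Atm libraries lie highest in C4b and in the microglial mean, at 3.15 to 3.41 against 2.44 to 2.62 in Control. In the C1q mean, Rnaseh2b replicate 3, at 3.69, lies just above Rnaseh2b/Atm replicate 2, at 3.68. Replicate 4 of the libraries labelled Atm has the lowest C1q mean, 2.79, at a microglial mean of 2.57.

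Other cell type lists also moved. In P28 Rnaseh2b/Atm against Control, 31.5% of all tested genes were called higher and 63.6% in either direction. Of the reactive astrocyte list, 7 of 10 tested were called higher and 1 lower in P28 Rnaseh2b/Atm than in Control, among them Gfap (1.96 ± 0.22 log2). Its summed level was 660 to 975 CPM in Rnaseh2b/Atm and 232 to 371 in Control. All 5 tested genes of border macrophages were called higher, with sums of 25.7 to 37.4 CPM in Rnaseh2b/Atm and 9.58 to 10.9 in Control. The 7 tested oligodendrocyte genes were all called lower, and the 9 meningeal fibroblast genes all higher. Of 8 granule neuron genes, 7 were called lower, with sums of 925 to 1802 CPM in Rnaseh2b/Atm and 3122 to 3847 in Control. Of 5 midbrain genes tested 3 were called higher and 1 lower, and the sum of the 7 found was 531 to 685 CPM in Rnaseh2b/Atm and 64.5 to 87.2 in Control. Of the interferon-stimulated list, 21 of 23 tested were called higher and 1 lower in P28 Rnaseh2b/Atm, 11 of 21 higher in P5 Rnaseh2b/Atm, and 17 of 21 higher and 1 lower in 9-week Rnaseh2b. At P5 and 9 weeks 6.48% and 10.6% of all tested genes were called higher in these comparisons. Markers of blood leukocytes were near their floor, with 6 listed genes summing to 2.45 to 6.65 CPM in Rnaseh2b/Atm and 3.06 to 6.53 in Control, and 0 of 3 tested were called. Each listed marker found in the P5 and P28 tables had reads in at least 1 library, and the part of these lists in the complement results was not tested.

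The genes most like each member were named by Pearson's r of log2 CPM over all libraries of an age, which share genotype, depth and tissue composition. For C1qa these were Man2b1 (0.97), Grn (0.95) and Trem2 (0.94) over the 20 libraries of P5, Pfn2 (0.95), Gm12360 (0.95) and Tmem119 (0.95) over the 20 of P28, and Prkcdbp (0.94), Dtx3l (0.94) and Fez2 (0.93) over the 14 of 9 weeks. For C4b they were Gfap (0.95), Clmn (0.91) and Atp2a3 (0.90) at P5, Zwint (0.98), Prrg3 (0.98) and L3mbtl3 (0.98) at P28, and Apoe (0.95), Relb (0.95) and Itpr2 (0.94) at 9 weeks. On values less their own group's mean the nearest genes were others: for C1qa, Galk1 (0.87) at P5, Hcls1 (0.88) at P28 and Hist1h2bc (0.88) at 9 weeks, and for C4b, Tmod1 (0.88) at P5, Ifit2 (0.83) at P28 and Olfml3 (0.94) at 9 weeks. Among the members, C1qa and C1qb had r of 0.94 at P5, 0.98 at P28 and 0.96 at 9 weeks. Serping1 and C4b had r of 0.91 at P28, 0.31 at P5 and -0.36 at 9 weeks.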

How the data were processed

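RNA of whole cerebellum was sequenced in 54 libraries, and replicates were grouped by genotype and age from the labels. Per the submitters' processing notes, which give no order or role, Trim Galore, STAR, BWA, HTSeq, limma and the mm9 build were used. The authors deposited log2 CPM values per gene and, beside them, FPKM values. In the deposited 9-week tables the 2 sets of libraries that their label codes separate had equal means per gene (largest difference 3.12e-09 log2 CPM) and 30976 FPKM values were below 0, so depth and per-length levels were not used there. Low P28 and P5 values were multiples of whole reads (at least 100% and 99.98% within 0.01, with 0.5 reads added), and the recovered reads were tested by voom. At P5, 3 rows named no gene, held 19.7 to 31.8% of reads and were left out of the tests. The deposited CPM scale counts them.

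Limma 3.58.1 (R 4.3.3) with an intensity trend was fitted to all groups of an age together, on genes at 1 CPM or more in at least 3 (P5), 5 (P28) or 7 (9 weeks) libraries. P-values were adjusted over all tested genes by Benjamini-Hochberg and called below 0.05. The fit was tested on simulated data. Genes were named as members, as called genes of the wider complement list with the smallest adjusted p first, or as the 3 most correlated genes. Gfap, C1s, Itgb2 and Masp1 at P28 were chosen after their values were seen. The result of 1 gene of the wider list is not reported here. Members and lists were chosen with earlier results of these data known. Alternatives were other scalings and filters, log2(FPKM + 0.1) and log2(FPKM + 1), the compared groups alone, a replicate block and voom. Others were no intensity trend, the Xist level of each library as a covariate, the 9-week sets, apart or as a term, and each library left out. Figures were drawn with matplotlib 3.10.9 from tables made in Python 3.11.15 with pandas 2.3.3.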

Additional observations from a re-analysis of the deposited data

Results flagged for a closer look

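In 64 checks, each of 1 gene in 1 group of 4 to 7 libraries, 5 had a library far from the others of its group, and chance gives about 5%. Checks of different genes used the same libraries, so they were not independent. C3 was 0.64 log2 CPM in P5 Rnaseh2b/Atm replicate 4 and 0.45 in P28 Rnaseh2b replicate 4. C1qc was 2.20 log2 CPM in P28 replicate 4 of the libraries labelled Atm. Itgam was 3.47 log2 CPM in P28 Rnaseh2b replicate 4, and C4b was 3.27 in 9-week Control replicate 3.

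The effect of Rnaseh2b deletion at P28 was larger on the Atm-labelled than on the Control background in 7 genes, by limma's test of the difference. On the log2 scale the difference was 2.02 in C4b, 1.82 in C3ar1 and 1.68 in C3. The last 2 entered the test only through Rnaseh2b/Atm, and both were called with no filter too. It was 0.998 in C1qc, 0.91 in C1qa, 0.85 in C1qb and 0.82 in Serping1. Atm transcripts were also lower in Rnaseh2b/Atm than in the Atm-labelled libraries, which this test cannot tell apart from loss of Rnaseh2b.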

How the results depend on the processing

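No called fold change reversed under any alternative tried. Serping1, not called, was -0.04 and 0.02 log2 in the 2 sets of 9-week libraries, and at P5 its difference in Rnaseh2b/Atm against Control was 0.01, or -0.10 without the libraries that stood apart. At 9 weeks 6 members were called, against 2 in the set of 3 libraries a group and 2 in the set of 4. With the compared groups fitted alone, P5 Rnaseh2b/Atm had 3 called against Control in place of 5, C3ar1 and Itgam being lost, and 4 against Rnaseh2b in place of 2, and P5 Rnaseh2b/p53 had 2 against Rnaseh2b in place of 4. With CPM per reads in genes, a scaling chosen after seeing the data, the last 2 comparisons gave 1 and 2. Leaving out each library gave 0 to 2 and 0 to 4 members in those comparisons, 5 to 6 at 9 weeks, 7 to 8 in P28 Rnaseh2b/Atm against Control and against Rnaseh2b, and 4 to 5 in P5 Rnaseh2b/Atm against the libraries labelled Atm. The cause was not tested. Correlations did not settle whether libraries sharing a replicate number were paired, because they differed between ages. No pairing was seen among the 9-week libraries, where 0 of 7 same-number pairs had r over 0.1. For P28, 12 of 30 such pairs passed 0.1, and their median r of 0.070 compared with -0.001 for other numbers. Among P5 libraries 21 of 46 passed, and the 2 medians were 0.067 and -0.015. With a replicate block P5 Rnaseh2b/p53 had 2 called against Rnaseh2b, the 9-week calls of C4b and C3ar1 were lost (adjusted p = 0.063 and 0.065, limma), and Itgam was called in P28 Rnaseh2b/Atm against Rnaseh2b (0.035). C3 and C3ar1 are limited by depth, at 7 to 160 reads a library at P28.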
